A study of Mus musculus with 2 samples.

Results

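The cells described here are classical monocytes with few complement C1q transcripts, taken from the CD45+ (leukocyte) fraction of the mouse heart. They were chosen by measured transcript levels, barcode by barcode. A member barcode had at least 300 detected genes, at most 10% of its UMIs (unique molecular identifiers, each a counted transcript) from mitochondrial genes, at most 20 UMIs of C1qa, C1qb and C1qc per 10000, and under 50 of S100a8 and S100a9 per 10000. It also held at least 2 UMIs of Ly6c2, 1 of Plac8 and 5 of Lyz2, fewer than 2 of Ace, Treml4 and Cd300e together, none of Siglech, fewer than 3 of the Cd3 genes and fewer than 2 of Cd209a. This gave 153 members among the 9770 barcodes that passed the first pair of limits, 28 in the sham library and 125 in the TAC library. The levels of these genes in members are therefore a description and support nothing else.

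The study sorted CD45+ cells from the hearts of C57BL/6 mice (wild type, 10 weeks old) with transverse aortic constriction (TAC, a surgical narrowing of the aorta that loads the left ventricle with pressure) or a sham operation. The design text gives 6 mice per group, and each group is 1 library of droplet-based single-cell RNA sequencing. No label ties a cell to a mouse, so there is no replicate, no test between groups is possible, and library and operation cannot be told apart. All intervals below are 95% intervals that cover counting error only, exact Poisson for levels, exact binomial (Clopper-Pearson) for shares and exact conditional binomial for ratios.

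Classical monocytes are made in the bone marrow and enter inflamed tissue from the blood, using the chemokine receptor Ccr2. In mice they carry the surface protein Ly6C at high level, and after entry they can become macrophages or antigen-presenting cells. Interferon-gamma, made mainly by T cells and natural killer cells, acts on such cells. It turns on guanylate-binding proteins (Gbp genes) and immunity-related GTPases, which act against pathogens inside cells, and the class II major histocompatibility complex (MHC), which presents antigen to CD4 T cells.

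The libraries held 87532984 UMIs in sham and 97983083 in TAC, and 4169 of 11941 sham and 5601 of 7975 TAC barcodes were kept. Most barcodes that were not kept were over the mitochondrial limit, 7590 in sham and 2246 in TAC. Sham members were shallower and richer in mitochondrial transcripts, with a median of 8393.5 UMIs per cell against 16021 in TAC and a mitochondrial share of 7.57% against 3.09%. The part of depth and mitochondrial share in the differences between libraries was not tested. The libraries shared 35 barcode sequences, and none belonged to a member. Doublets were not called.

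Members made up 0.672% (0.447 to 0.969) of kept barcodes in sham and 2.23% (1.86 to 2.65) in TAC. The share in TAC was 3.32-fold higher (2.19 to 5.2), a log2 ratio of 1.73. With a mitochondrial limit of 25% the log2 ratio was 2.51, and with a limit of 5% a single sham member (1 cell) was left. The number of members depended on the limits of the rule in different ways in each library. Without the C1q limit the TAC members numbered 265, without the S100a8 and S100a9 limit 395, and without the Ly6c2 limit 177. The same omissions gave 54, 30 and 45 cells in sham. Just inside the C1q limit, between 10 and 20 per 10000, lay 5 TAC cells with a median of 14.1 Ly6c2 UMIs per 10000. Just outside it, up to 40 per 10000, lay 14 TAC cells with a median of 18.6. The 10 TAC members with 2 to 4 Ly6c2 UMIs had a median of 2.65 Ccr2 UMIs per 10000. The 52 TAC cells kept out for 0 or 1 Ly6c2 UMI had a median of 0. In sham the 5 members with 2 to 4 Ly6c2 UMIs had a median of 8.45 Ccr2 UMIs per 10000. The 17 sham cells kept out had a median of 4.25, so the limit also kept out sham cells with Ccr2.

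The label was checked against the 4 marker genes. Ly6c2 (chromosome 15, 75108158 to 75111970, minus strand, GRCm38) was present in 28 of 28 sham and 125 of 125 TAC members, as the rule requires. Ccr2 (chromosome 9, 124101950 to 124113557, plus strand), which the rule did not use, was found in 28 of 28 sham and 119 of 125 TAC members. Chil3 (chromosome 3, 106147554 to 106167564, minus strand), a secreted chitinase-like protein, was found in 22 of 28 and 109 of 125. Chil3 was also outside the rule. Against all other kept barcodes of the same library, Chil3 stood at 1957 against 14.2 CPM in sham (counts of a gene summed over a set of cells, per 1000000 UMIs of the set) and ranked 1st among 2154 genes. In TAC it stood at 2127 against 450 CPM, 4.73-fold higher, and ranked 23rd of 2300. Ccr2 ranked 34th in sham and 6th in TAC. The ranks of Ly6c2 and Plac8 were fixed by the rule and check nothing. Of 14 classical monocyte markers outside the rule, at least 3 were present at 2 or more UMIs in 28 of 28 sham and 122 of 125 TAC members. Markers of related classes were present too. At least 3 of 12 non-classical monocyte markers were found at that level in 7 of 28 sham and 72 of 125 TAC members. The same count was 7 and 46 for at least 3 of 14 macrophage markers, and 1 and 24 for at least 3 of 7 plasmacytoid dendritic markers. For at least 3 of 16 neutrophil markers outside the rule it was 0 of 28 sham and 15 of 125 TAC members. These 16 genes summed to 275 CPM in sham and 404 in TAC members, and the source of these transcripts was not tested.

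Most markers of lymphocytes were at 0. In sham members all 8 T cell markers outside the rule were at 0. In TAC members 5 of 8 were at 0, among them Trac, Trbc1 and Trbc2. Natural killer cell markers were at 0 for 9 of 10 genes in sham and 7 of 10 in TAC. The 10 genes summed to 8.21 CPM in sham and 97.8 in TAC members. Only 1 of them had a mean of at least 50 CPM, and it was higher in TAC (log2 ratio 3.21). Of 9 markers each of conventional dendritic cells 1 and 2, 3 and 4 had a UMI in sham members and 8 and 8 in TAC members, with Flt3 at 0 in both libraries. At least 3 of these markers were held at 2 or more UMIs by no sham member, and by 7 (type 1) and 3 (type 2) TAC members. At least 3 markers of fibroblasts, endothelial cells, cardiomyocytes or erythroid cells were present at 2 or more UMIs in 1 sham and 5 TAC members, and these cells were kept. Macrophage markers outside the rule summed to 2.59 to 116 UMIs per 10000 (median 21) in sham members and 0.670 to 497 (median 6.78) in TAC members.

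**Figure D1:**
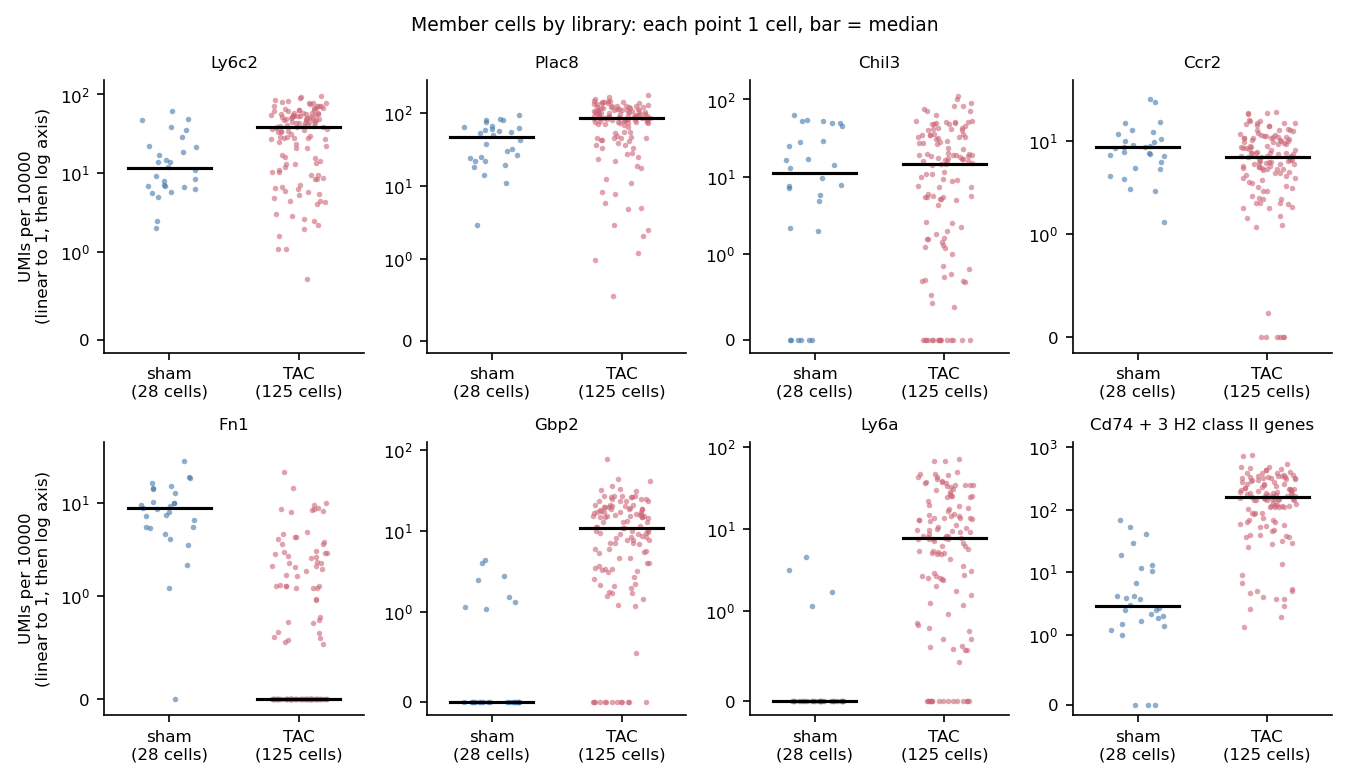
UMIs per 10000 in each member cell of the sham and TAC libraries for Ly6c2, Plac8, Chil3, Ccr2, Fn1, Gbp2, Ly6a and the sum of Cd74, H2-Aa, H2-Ab1 and H2-Eb1, with a bar at the median; the axis is linear up to 1 and logarithmic above. Chil3 and Ccr2 overlap between libraries, Fn1 has a median of 8.73 in sham and 0 in TAC, and the summed class II genes have medians of 2.85 and 156.

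Of the 4 marker genes, Chil3 and Ccr2 had overlapping per-cell levels in the 2 libraries, and Ly6c2 and Plac8, which the rule used, were higher in TAC, as the plot of single cells shows. Per cell, the median of Chil3 was 11.3 UMIs per 10000 in sham (0 to 62.8) and 14.7 in TAC (0 to 112). Ccr2 had medians of 8.55 (1.33 to 28.2) and 6.68 (0 to 20.2). The sham range of each gene lay over most of the TAC range. Ly6c2 had a median of 11.5 in sham (2.03 to 62.1) and 38.5 in TAC (0.698 to 95.4), so the upper part of the TAC range lay above every sham cell. In summed counts Ly6c2 stood at 1752 CPM in sham and 3731 in TAC, 2.13-fold higher (1.93 to 2.35). Its near-identical neighbour Ly6c1 can take or lose reads, so its level is uncertain.

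Other classical monocyte markers were lower in TAC members. Fn1 (chromosome 1, 71585520 to 71653200, minus strand), which encodes the matrix protein fibronectin, stood at 948 CPM in sham and 144 in TAC, 6.57-fold lower (5.51 to 7.83). It was found in 27 of 28 sham and 57 of 125 TAC members. After each cell was thinned to 2000 UMIs, Fn1 was found in 85.7% of sham (67.3 to 96.0) and 18.4% of TAC members (12.0 to 26.3), and the lower level was also seen at equal depth. F13a1, a transglutaminase of clotting, stood at 636 and 263 CPM, 2.42-fold lower (2.01 to 2.90). Cd177, a surface protein of myeloid cells, stood at 119 and 19.6 CPM, 6.08-fold lower (3.64 to 10.1). Of the 16 classical markers, which include Ly6c2 and Plac8 of the rule, 1 (Ly6c2) was at least 2-fold higher and 3 (Fn1, Cd177 and F13a1) were at least 2-fold lower. The background was 165 of 2420 genes compared at least 2-fold higher (6.82%) and 67 lower (2.77%), a split of 71.1% higher among those past 2-fold. With totals that leave out mitochondrial and ribosomal genes, 187 were higher and 129 lower, a split of 59.2%, and the median log2 ratio over all genes was -0.05. The median log2 ratio of the list was -0.25, and that of all genes compared 0.05.

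The comparison of TAC with sham members used summed UMIs of genes with a mean of at least 50 CPM over the 2 libraries, and a gene was counted as higher or lower when the ratio passed 2-fold. Genes that interferon-gamma induces were far higher in TAC. Of 19 measured genes in the list of interferon-gamma GTPases and targets, 17 were higher and 1 was lower, and the median log2 ratio was 3.72. Over all genes compared, 6.82% were higher and 2.77% lower, which is the background for every list of TAC against sham members. Its members fell into GTPases, signalling genes, and surface or secreted proteins.

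Among the GTPases, Gbp2 (chromosome 3, 142620602 to 142638008, plus strand) stood at 61.5 CPM in sham (15 UMIs) and 1255 in TAC (2567 UMIs). That was 20.4-fold higher (12.3 to 36.5), and Gbp2 was found in 8 of 28 sham and 112 of 125 TAC members. Iigp1 was found in 1 sham member with 1 UMI and in 97 TAC members with 951 UMIs. Its ratio of 113 had an interval of 20.3 to 4481 because of that single UMI. Gbp4 and Gbp8 had no UMI in sham and 310 and 248 in TAC, which makes them at least 12.3-fold and 9.85-fold higher when sham is set to 3 UMIs. Gbp7 was 14.4-fold higher (6.16 to 44.6), Igtp 9.44-fold (4.01 to 29.2) and Irgm1 3.08-fold (1.69 to 6.23). Gbp genes are close copies of one another, and the split of reads among them is uncertain.

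Among the signalling genes, Irf1, a transcription factor that interferon-gamma induces, stood at 41.0 CPM in sham and 168 in TAC, 4.10-fold higher (2.20 to 8.63). Irf8, a factor of monocyte and dendritic cell development, was 2.04-fold higher (1.43 to 3.01). Cebpb and Klf2, the most abundant factors of the list, stood at 2810 and 2550 CPM and at 1001 and 1178 CPM. The median log2 ratio of the 22 transcription factors measured was 0.13. Of these, 3 were higher and 1 was lower, against 6.82% and 2.77% of all genes compared. The lower one was Nr4a1, a nuclear receptor that non-classical monocytes need, at 620 CPM in sham and 219 in TAC, 2.83-fold lower (2.34 to 3.42).

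Among surface and secreted proteins, Ly6a (chromosome 15, 74994877 to 74998031, minus strand), which encodes the surface protein Sca-1, stood at 36.9 CPM in sham and 1410 in TAC. It was 38.2-fold higher (20.1 to 83.6) and was found in 4 of 28 sham and 109 of 125 TAC members. Serpina3g, a protease inhibitor, had no UMI in sham and 508 in TAC, in 92 members, and was at least 20.2-fold higher. Il18bp, a secreted inhibitor of interleukin 18, had none in sham and 224 in TAC, and was at least 8.90-fold higher. Fcgr4, an activating receptor for IgG, stood at 32.8 and 271 CPM, 8.25-fold higher (4.16 to 19.2). The chemokines that draw T cells split. Cxcl9 stood at 4.10 and 263 CPM, from 1 UMI in sham, and was found in 42 of 125 TAC members. Cxcl10 stood at 275 CPM in sham and 134 in TAC, 2.05-fold lower (1.55 to 2.69).

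Levels in other cell types of the same library give a measure of transcripts that are not the cell's own. Fibroblasts were defined by Dcn and collagen transcripts and by at most 20 C1q UMIs per 10000. In TAC fibroblasts Ly6c2 stood at 8.38 CPM, Chil3 at 6.42 and Ccr2 at 3.07, far below members. Plac8 stood there at 182 CPM, against 7889 in members. TAC T cells were not as low, with 1105 CPM of Ly6c2, 1050 of Plac8, 271 of Chil3 and 159 of Ccr2. The source of these transcripts was not tested. In TAC fibroblasts Gbp2 stood at 954 CPM and Ly6a at 4108. Fibroblasts can make Gbp2 and Ly6a themselves, so these values are no background for members. C1q, which fibroblasts lack, summed to 101 CPM in sham and 209 in TAC fibroblasts, and to 185 and 324 in members. The same C1q limit capped these levels in both cell sets, so they are a description only. S100a8, a neutrophil gene, stood at 5.70 and 94.4 CPM in fibroblasts and at 41.0 and 377 in members. Both were higher in TAC in both cell sets, and the part of free RNA in these differences was not tested.

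**Figure D2:**
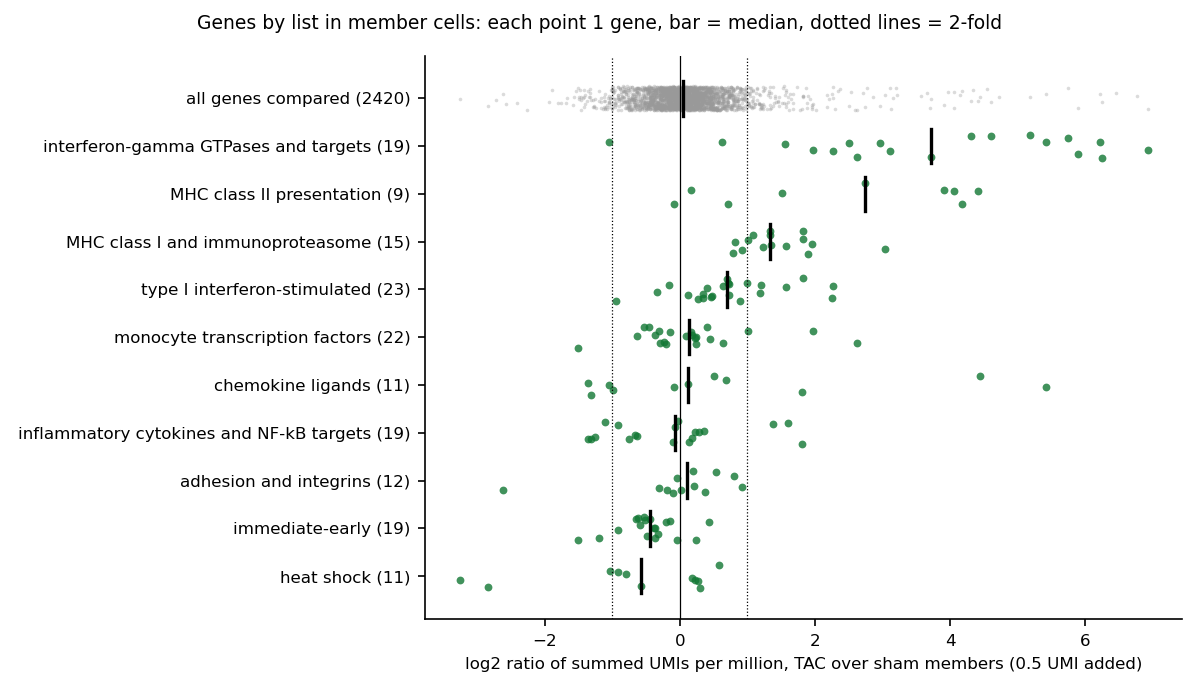
Log2 ratio of summed CPM (0.5 UMI added), TAC over sham members, for each gene compared (1 point per gene, number of genes in brackets), by list, with a bar at the median and dotted lines at 2-fold. The interferon-gamma list (median 3.72) and the class II list (median 2.74) lie to the right of all genes compared (median 0.05), and the heat shock list (median -0.58) lies to the left.

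Class II antigen presentation was the other list far higher in TAC, as the plot of genes by list shows. Of 9 measured genes, 6 were higher and none was lower, and the median log2 ratio was 2.74. Cd74, the invariant chain that carries class II molecules, stood at 624 CPM in sham and 9382 in TAC, 15-fold higher (12.8 to 17.8). H2-Ab1 (chromosome 17, 34257689 to 34269419, plus strand) stood at 164 and 3545 CPM, 21.6-fold higher (15.8 to 30.3). H2-Aa was 18.2-fold higher (13.5 to 25.3) and H2-Eb1 16.9-fold (12.1 to 24.5). The peptide loading genes H2-DMb1 and H2-DMa were 6.82-fold (4.48 to 10.9) and 2.87-fold (2.23 to 3.75) higher. Ciita, the transactivator that class II genes depend on, had no UMI in 28 sham members and 177 in TAC, spread over 70 of 125 members. That is at least 7.03-fold higher with sham set to 3 UMIs. Its mean lay under 50 CPM, so it is not among the 9. Cd86, a costimulatory ligand, stood at 139 and 133 CPM, with a ratio whose interval (0.668 to 1.41) includes 1.

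Counted per cell, the sum of Cd74, H2-Aa, H2-Ab1 and H2-Eb1 had a lowest value of 0, a median of 2.85 and a highest of 68.9 UMIs per 10000 in sham. In TAC the lowest was 1.36, the median 156 and the highest 740. The TAC values ran from sham-like levels to levels far above any sham cell, with the 10th percentile at 10.9 and the 90th at 370. Thinned to 2000 UMIs, H2-Ab1 was found in 82.4% of TAC (74.6 to 88.6) and 25% of sham members (10.7 to 44.9). H2-Ab1 in sham members (164 CPM) was near the level in sham fibroblasts (133 CPM), while Cd74 stood at 624 against 234. Sham T cells held 544 CPM of Cd74 and 91.3 of H2-Ab1, but they were 10 barcodes, 1 of which held 47.6% of their UMIs, and they also carried 1035 CPM of C1q. The ratios above may therefore have a sham level that is in part free RNA, which was not tested. In TAC, fibroblasts had 382 CPM of Cd74 and 198 of H2-Ab1 and T cells 1052 and 370, against 9382 and 3545 in members. B cells express class II genes, and B cell markers in TAC members were at 0 for 6 of 9 genes.

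Promoters of 3 of these genes are shown because they carry short motifs that are known to be read by interferon and class II factors. They were chosen after the expression values were seen. Each is the 250 bases before the start of transcription, from RefSeq on GRCm38.p6, read 5′ to 3′ on the gene's strand. Capitals mark matches, on either strand, to a gamma-activated site (GAS, TTCNNNGAA), to a 9-letter part of the interferon-stimulated response element (ISRE, GAAANNGAA), and to the Y box of class II promoters (ATTGG). Of 32851 promoters of the same length, 7.02% hold a GAS match, 7.13% an ISRE part and 33.8% a Y box. Igtp lies at chr11:58199306-58199555 (plus strand), H2-Aa at chr17:34287824-34288073 (minus strand) and H2-Eb1 at chr17:34305617-34305866 (plus strand).
Igtp: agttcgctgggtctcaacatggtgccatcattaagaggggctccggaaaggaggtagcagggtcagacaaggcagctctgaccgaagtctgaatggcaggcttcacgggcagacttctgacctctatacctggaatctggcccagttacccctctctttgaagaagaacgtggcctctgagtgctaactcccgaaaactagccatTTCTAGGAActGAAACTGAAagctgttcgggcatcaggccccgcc
H2-Aa: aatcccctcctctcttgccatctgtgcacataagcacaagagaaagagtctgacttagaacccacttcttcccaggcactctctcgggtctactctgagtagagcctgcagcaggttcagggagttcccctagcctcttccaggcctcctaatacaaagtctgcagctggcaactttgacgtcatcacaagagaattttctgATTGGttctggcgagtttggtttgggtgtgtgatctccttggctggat
H2-Eb1: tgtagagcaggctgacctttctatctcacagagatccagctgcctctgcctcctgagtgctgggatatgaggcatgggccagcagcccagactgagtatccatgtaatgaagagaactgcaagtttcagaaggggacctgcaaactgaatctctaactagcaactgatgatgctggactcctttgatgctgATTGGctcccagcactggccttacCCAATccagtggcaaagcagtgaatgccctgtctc
Igtp holds 1 GAS, starting 45 bases before the transcript start, and 1 ISRE part, which do not overlap. H2-Aa holds 1 Y box and H2-Eb1 holds 2. Gbp2 and Cxcl9 each hold 1 ISRE part, Gbp5 and Gbp7 each hold 2 GAS and 1 ISRE part, Cxcl9, Gbp7 and 1 of 2 promoters of Plac8 each hold 1 Y box, and Serpina3g holds 1 GAS. Ly6c2 holds none of the 3 motifs in either of its 2 promoters, and Ccr2 holds 1 ISRE part. A match describes these letters and is not evidence of binding.

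Class I presentation was higher by smaller ratios. Of 15 genes measured, 12 were higher and none was lower, and the median log2 ratio was 1.33. The immunoproteasome subunits Psmb8 and Psmb9 were 2.52-fold (2.12 to 3.02) and 2.58-fold (1.97 to 3.45) higher, and the peptide transporter Tap1 3.62-fold (2.27 to 6.16). B2m, the light chain of class I molecules, stood at 1842 and 3505 CPM, 1.90-fold higher (1.73 to 2.10). H2 class I genes are close copies, and their split of reads is uncertain.

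Genes induced by type I interferons differed less. Of 23 genes, 7 were higher and none was lower, and the median log2 ratio was 0.70. Among all genes compared 6.82% were higher and 2.77% lower. Isg15, a ubiquitin-like modifier, stood at 127 and 612 CPM, 4.81-fold higher (3.37 to 7.12), and was found in 11 of 28 sham and 116 of 125 TAC members. Ifi47, a GTPase that is also on the interferon-gamma list, was 4.92-fold higher (3.23 to 7.90). Isg20, a ribonuclease, had the lowest ratio of the list, at 73.9 and 39.1 CPM. Sham members already held 6470 CPM of Ifitm3, a membrane protein of antiviral defence, against 5761 in TAC.

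Chemokine ligands differed in both directions, with 3 of 11 higher, 3 lower and a median log2 ratio of 0.12. Cxcl2, a neutrophil attractant, stood at 853 CPM in sham and 3003 in TAC, 3.52-fold higher (3.06 to 4.06). Ccl3 and Ccl4, which attract monocytes and T cells, were 2.48-fold (2.18 to 2.82) and 2.56-fold (2.34 to 2.79) lower. Ccl2, the ligand of Ccr2, stood at 890 and 966 CPM with a ratio whose interval (0.943 to 1.25) includes 1. Ccl8 was higher by 32.7-fold (5.81 to 1294), but 68.6% of its TAC UMIs came from 1 cell. Of 5 chemokine and trafficking receptors (median log2 ratio 0.20) 1 was higher and 1 was lower, against 6.82% and 2.77% of all genes compared. The lower one was Cxcr4, which holds cells in the marrow, at 2.74-fold lower (2.02 to 3.67).

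Of 19 inflammatory cytokines and NF-kB targets, 3 were higher, 4 were lower and the median log2 ratio was -0.07. The shares over all genes compared were 6.82% higher and 2.77% lower. Il1b, the cytokine interleukin 1 beta, stood at 1768 CPM in sham and 820 in TAC, 2.16-fold lower by the summed counts. It was found in 19 of 28 sham and 80 of 125 TAC members, with medians of 6.26 (0 to 72.4) and 0.774 (0 to 106) UMIs per 10000. Clec4e, a receptor for microbial and damage ligands, was 2.39-fold lower, at 484 and 203 CPM. Tnf stood at 45.1 and 143 CPM, and 39.6% of its TAC UMIs came from 1 cell.

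A few genes with large ratios rested on few cells. Saa3, an acute-phase protein, was found in 25 of 125 TAC members, and 1 cell held 74.3% of its UMIs. Spp1, which encodes osteopontin, was found in 30 TAC members and in none of 28 sham members, where a count of 0 (a limit of 3 cells) allows up to 10.7% of cells with a UMI. The largest cell held 28.3% of its UMIs. Upp1, uridine phosphorylase, had no UMI in sham and 369 in TAC over 67 members, and was at least 14.7-fold higher. Rhov, a small GTPase, was found in 1 sham and 61 TAC members.

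A few genes of cell stress were lower in TAC. Of 11 heat shock genes none was higher and 3 were lower, and the median log2 ratio was -0.58. Hspa1a, an inducible chaperone, stood at 628 CPM in sham and 65.5 in TAC, 9.58-fold lower (7.55 to 12.2), and Hspa1b 7.16-fold lower (5.05 to 10.1). These genes are near-identical copies. The summed heat shock list stood at 7328 CPM in sham and 7063 in TAC members. Hspa1a was found in 26 of 28 sham and 42 of 125 TAC members. Of 19 immediate-early genes none was higher and 2 were lower, Atf3 and Nr4a1, and the median log2 ratio was -0.44. Fos stood at 3003 and 2320 CPM. The 12 mitochondrial genes measured had a median log2 ratio of -1.38, and 8 of them were lower. Hspa1a was also lower in TAC in other cells, at 792 and 197 CPM in sham and TAC fibroblasts. The part of the mitochondrial share in the stress genes was not tested.

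Some genes of the passage from monocyte to macrophage were higher in TAC. Of 18 measured, C1qa and C1qb of the rule among them, 5 were higher and none was lower. Over all genes compared 6.82% were higher and 2.77% lower, and the median log2 ratio of the list was 0.20. The 5 include C1qb, at 78.0 and 164 CPM, whose level the rule capped. They also include Spp1, which was found in 30 of 125 TAC members. Aif1, an actin-binding protein of macrophages, was 3.07-fold higher (2.25 to 4.28) and Lpl, lipoprotein lipase, 3.28-fold (2.0 to 5.80). Adgre1, which encodes F4/80, and the growth factor receptor Csf1r had intervals of the ratio that include 1. Apoe, an apolipoprotein, stood at 2445 and 1592 CPM.

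The same comparison was set beside Ccr2-positive macrophages, defined by at least 50 C1q UMIs per 10000 and 1 Ccr2 UMI, with at most 1 UMI of Lyve1, Timd4 and Folr2. These were 183 sham and 520 TAC cells, and the comparison shares its libraries with that of the members. In these macrophages 7.01% of 2296 genes compared were higher in TAC and 3.44% lower. The interferon-gamma list was higher there too, with 18 of 20 genes higher and a median log2 ratio of 3.08, against 3.72 in members. Of 10 class II genes, 1 was higher there, and the median log2 ratio was 0.21 against 2.74 in members. Cd74 stood at 18255 CPM in sham and 21224 in TAC macrophages, and Ciita at 121 and 93.4. For Cd74, H2-Aa, H2-Ab1 and H2-Eb1, TAC members lay between sham members and the macrophages of both libraries.

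**Figure D3:**
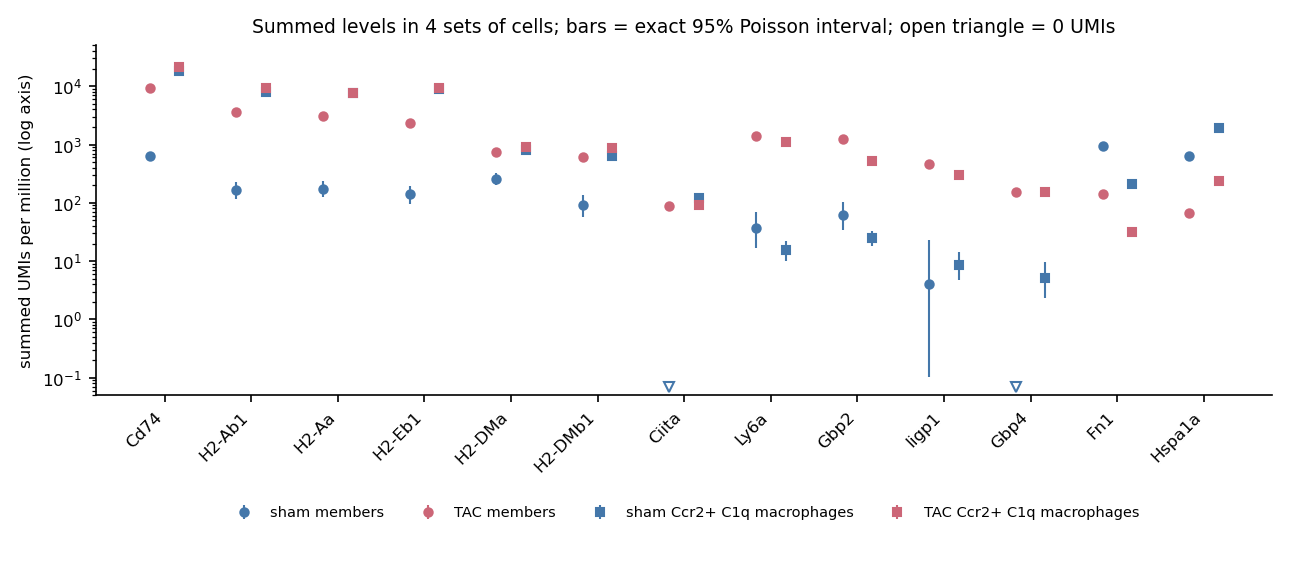
Summed CPM on a log axis in members (circles) and Ccr2-positive C1q macrophages (squares) of the sham and TAC libraries, with exact 95% Poisson intervals and an open triangle for 0 UMIs. Class II genes such as H2-Ab1 are at 164 CPM in sham members, 3545 in TAC members, and 8022 and 9169 in sham and TAC macrophages, while Gbp2 is higher in TAC in both cell sets.

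Other lists were also set side by side. Type I interferon genes had 13 of 20 higher in macrophages with a median log2 ratio of 1.98, against 7 of 23 and 0.70 in members. Of 12 heat shock genes 7 were lower in macrophages and 3 of 11 in members, and the list medians were -1.22 and -0.58. Fn1 was lower in both, at 213 and 31.7 CPM in sham and TAC macrophages. By summed counts Ccl3 and Ccl4 were lower in TAC members. In macrophages Ccl4 stood at 3535 and 5361 CPM and Ccl3 at 1121 and 1701, neither past 2-fold. The difference between the 2 cell sets could not be tested with 1 library per group.

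Within the TAC library, members differed from these macrophages in more than the genes of the rule. Of 2442 genes compared, 165 were at least 2-fold higher in members (6.76%) and 163 lower (6.67%). Among the highest were Prtn3, a granule protease of immature myeloid cells, at 113 against 3.75 CPM, 30.3-fold higher (21 to 45), and Hp, which encodes haptoglobin, at 828 against 39.0, 21.2-fold (18.9 to 23.9). Others were Mcemp1, Chil3, Mgst1 and the matrix proteoglycan gene Vcan. Vcan was 15.7-fold higher (13.1 to 18.9). Matrix and repair genes had 9 of 14 higher and 1 lower (median log2 ratio 1.86). Thbs1, thrombospondin, stood at 464 against 82.4 CPM, and Fn1 at 144 against 31.7. S100 and annexin genes had 7 of 17 higher and none lower, with S100a4 3.97-fold higher (3.78 to 4.16). The 7 include S100a8 of the rule, at 377 against 127 CPM, whose level was capped in both cell sets.

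Chemokine ligands were lower in members than in macrophages of the TAC library, with 11 of 15 lower, none higher and a median log2 ratio of -1.69. Ccl12 stood at 79.7 against 1562 CPM, 19.6-fold lower (16.8 to 23), and Ccl7 at 131 against 1708, 13-fold lower (11.5 to 14.8). Both are ligands of Ccr2. Inflammatory genes had 9 of 22 lower and 2 higher. Class II genes had 6 of 10 lower and none higher, with H2-Eb1 3.98-fold lower (3.87 to 4.10). Cell cycle genes had 5 of 7 lower, with Mki67 at 19.6 against 99.7 CPM. Retnla, a gene of alternatively activated macrophages, had 1 UMI in members and 472 CPM in macrophages. Cd72 was 33.4-fold lower (24.1 to 47.8), and the lectin Mgl2 31.7-fold lower (20.3 to 52.8).

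Non-classical monocytes, which patrol vessel walls, were taken as cells low in C1q with at least 2 UMIs of Ace, Treml4 and Cd300e. The TAC library held 117 and the sham library 8, too few for a comparison. Of the 117, 25 also held at least 5 UMIs of Dcn, a fibroblast gene, against 1 of 125 members. With all 117, 151 of 2653 genes were higher in members (5.69%) and 234 lower (8.82%), and the lowest were fibroblast matrix genes. Postn, a matrix protein, stood at 4.40 against 1303 CPM. Without barcodes with Dcn, a choice made after the data were seen, 137 of 2542 genes were higher (5.39%) and 101 lower (3.97%). The values below come from that comparison.

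Members were higher than non-classical monocytes in Ccl2, at 928 against 144 CPM, 6.47-fold (5.58 to 7.53), and in Thbs1, 6.27-fold (5.11 to 7.76). Osm, the cytokine oncostatin M, was 7.76-fold higher (6.08 to 10.0), and Vcan 5.06-fold (3.96 to 6.55). Matrix and repair genes had 8 of 12 higher and none lower, and chemokine ligands 7 of 12 higher and none lower. Lower in members were Cx3cr1, the fractalkine receptor, 5.73-fold (4.06 to 8.25), Ear2, an eosinophil-type ribonuclease, 17.8-fold (11 to 30.7), and Fxyd2, a regulator of the sodium pump, 439-fold (188 to 1354). Of 13 non-classical markers 12 were lower, but Ace, Treml4 and Cd300e among them defined the 2 sets. Interferon-gamma genes had 5 of 24 higher and 1 lower, with Gbp2 at 1269 against 730 CPM and Ly6a at 1424 against 1584. Class II genes had 2 of 10 higher, and Cd74 stood at 9467 against 6579.

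**Figure D4:**
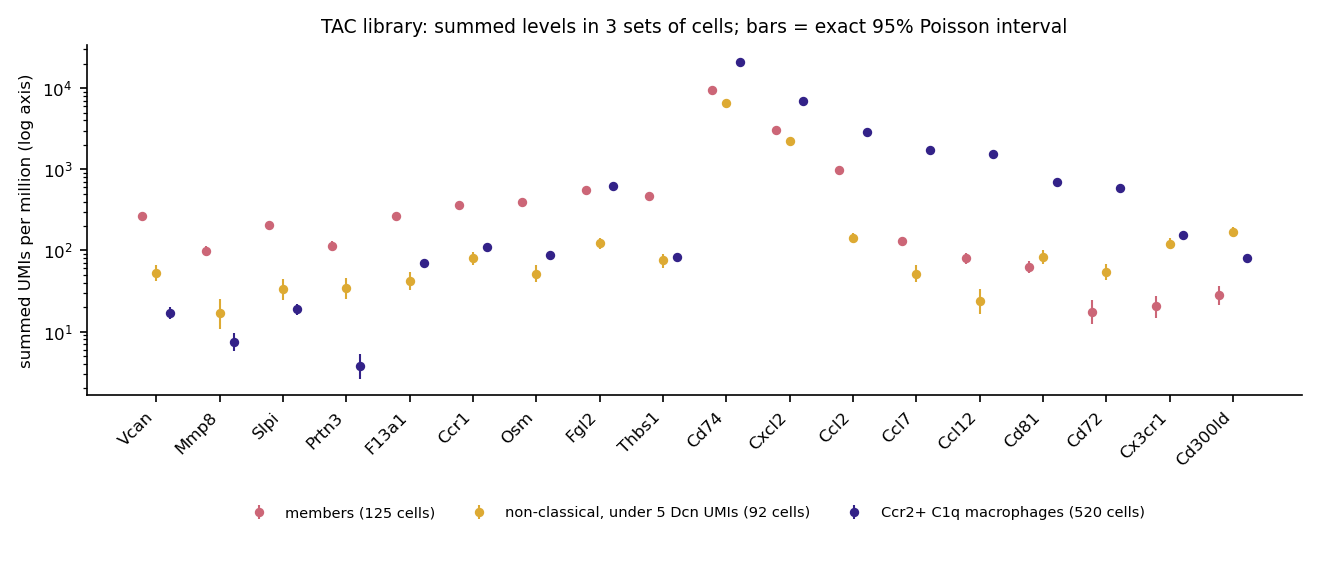
Summed CPM on a log axis in 3 sets of TAC cells with exact 95% Poisson intervals: members, non-classical monocytes with fewer than 5 Dcn UMIs, and Ccr2-positive C1q macrophages. Members are highest of the 3 for Mmp8, Vcan and Thbs1, and macrophages are highest for Cd74, Ccl7 and Ccl12.

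TAC members varied among themselves along a few axes. Correlations over the 125 cells are descriptions, since the cells share 1 library and differ in depth, and no p is given. Ly6c2 and Chil3 had a Spearman correlation of 0.45 (0.46 with 124 cells thinned to 5000 UMIs). Chil3 and the 4 class II genes ran against each other, at -0.46 (-0.43 thinned). Ly6a ran with class II genes at 0.54 (0.56 thinned) and with 7 GTPases at 0.54 (0.47 thinned). Class II genes also ran against S100a4 and S100a6, at -0.41 in each case. Cells without a Ly6a UMI spanned low and high class II levels, as the plot of single TAC cells shows.

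**Figure D5:**
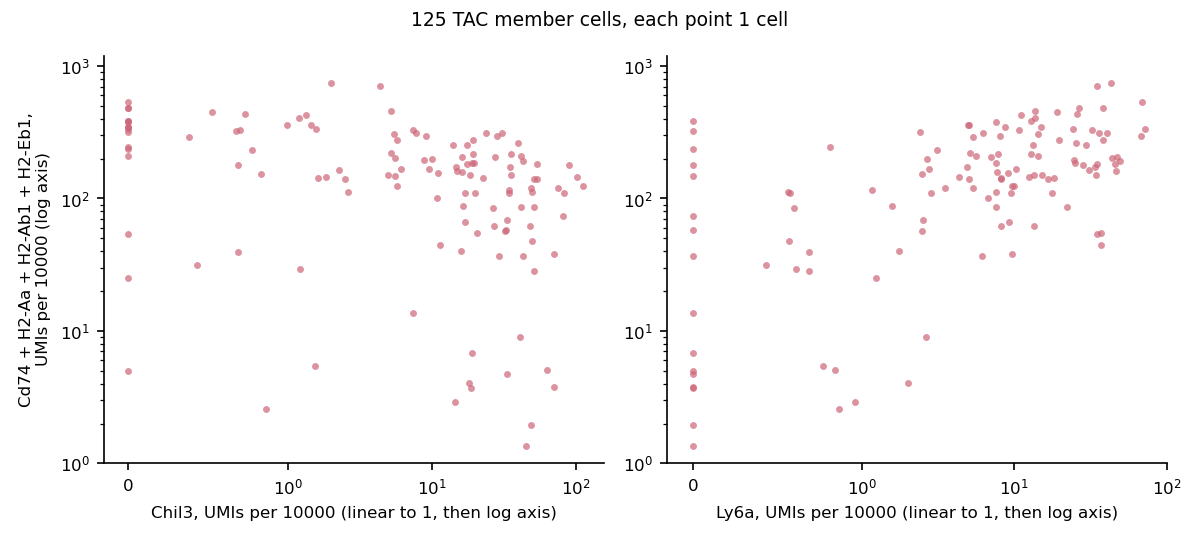
Summed Cd74, H2-Aa, H2-Ab1 and H2-Eb1 UMIs per 10000 (log axis) against Chil3 (left) and Ly6a (right) UMIs per 10000 in the 125 TAC members, 1 point per cell. The sum is lower in cells with more Chil3 (Spearman correlation -0.46) and higher in cells with more Ly6a (0.54).

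The TAC members were also split at their median Ly6c2 of 38.5 UMIs per 10000, into 62 cells above it and 63 at or below it. This is a range of 1 gene and not a type, and the median depths were 16291 and 15412 UMIs. Of 2477 genes, 18 were higher in the upper set (0.727%) and 105 lower (4.24%). Higher were Mgst1, a microsomal glutathione transferase, 2.47-fold (2.19 to 2.78), Mmp8, a neutrophil collagenase, 2.43-fold (1.78 to 3.36), Prtn3 2.28-fold (1.72 to 3.05) and Chil3 2.11-fold (1.98 to 2.25). Lower were inflammatory genes, 9 of 19 with none higher, and chemokine ligands, 6 of 13 with none higher. Cxcl2 stood at 984 against 4972 CPM, 5.05-fold lower (4.72 to 5.42), and Il1b 4.13-fold lower (3.66 to 4.69). Apoe was 6.92-fold lower (6.23 to 7.70). Ly6a stood at 1419 and 1400 CPM, with a ratio whose interval (0.942 to 1.09) includes 1. Fibroblast and endothelial genes lay in the lower set, with Sparc, a matrix glycoprotein, at 1 UMI above the median and 215 at or below it, and their part in this split was not tested.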

How the data were processed

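Single-cell RNA libraries of heart CD45+ cells, 1 from sham and 1 from TAC mice, were deposited by the authors as raw UMI counts per gene and barcode, for which the submitters' processing notes list Cell Ranger 3.0 and mm10. The step that chose cell barcodes is not stated in the labels, and the GEM wells of a library were not told apart. Sums and intervals were computed with numpy 2.4.6, pandas 2.3.3 and scipy 1.17.1 (Python 3.11.15), and plots with matplotlib 3.10.9. The rule and all limits are as stated in the report. Counts were summed over the cells of a set and scaled to CPM (per 1000000). Genes with a mean of at least 50 CPM over the 2 sets were compared, and 2-fold was the limit of a call. Log2 ratios had 0.5 UMI added to each sum. Where a sum was 0, it was set to 3 counts for a lower bound. Shares at equal depth came from cells thinned once to 2000 UMIs, and no member was shallower. With 1 library per group no test or p-value was computed. The intervals were checked on simulated Poisson counts only. Those counts hold no spread between cells, so the check does not cover that spread.

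Genes were named by rank (the 15 highest and 15 lowest ratios of each comparison, leaving out mitochondrial, ribosomal, haemoglobin, predicted and rule genes and markers of other classes only), by abundance (the 20 highest), as rule or marker genes, and from the lists (any member of lists with at most 20 measured genes, otherwise the 2 most abundant and the 2 highest and 2 lowest ratios). Irf8, the genes of other cell sets quoted as background and Sparc were named after their values were seen. The members and the lists were chosen with earlier results of these data known. Gene positions are from GENCODE on GRCm38, and promoters are from RefSeq. Some genes that the naming rule would include are not reported here.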

Additional observations from a re-analysis of the deposited data

How the results depend on the processing

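No paired analysis was possible because each group is 1 library and the labels give no replicate numbers. For the same reason no replicate could be left out, and depth limits precision to counting error. Of the values that answer a comparison, 169 stayed within the error or within 1.5 times and 23 did not. Of single genes and shares, 468 stayed, 53 moved and 1 reversed. With a mitochondrial limit of 5% the sham members numbered 1, so TAC and sham genes were not compared under it, and with 25% the log2 ratio of the share was 2.51. For TAC against sham, genes higher and lower numbered 455 and 256 at a mean of at least 20 CPM, 37 and 22 at 200 CPM, and 403 and 240 past 1.5-fold. Totals without mitochondrial and ribosomal genes gave 129 lower. Against non-classical monocytes the same 3 settings gave 246 and 558, 61 and 45, and 392 and 366, and 101 were lower without barcodes with Dcn. Against Ccr2-positive macrophages they gave 310 and 297, 52 and 51, and 438 and 276. With each cell weighted equally, the median log2 ratio of class II genes against non-classical monocytes was 0.52 in place of 1.04. Cilp, a fibroblast matrix gene, reversed to a log2 ratio of 0.19 without barcodes with Dcn, from -8.67. That alternative, and the one without members holding markers of other cells, were chosen after seeing the data.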

Other observations

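Metabolic genes lay nearer to the median of all genes in TAC against sham members than interferon-gamma and class II genes did. Among 16 genes of glycolysis and hypoxia, 2 passed 2-fold upward and none downward, and the list had a median log2 ratio of 0.59. Of 43 genes of oxidative phosphorylation encoded in the nucleus 1 was higher and none was lower, with a median of 0.27. The 82 ribosomal protein genes held no gene past 2-fold in either direction, and their median was -0.09. Of 12 adhesion and integrin genes none was higher and 1 was lower, with a median of 0.11. The background over all genes compared was 6.82% higher and 2.77% lower, with a median of 0.05.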
